A study of Solanum lycopersicum with 6 samples.

Results

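The genes described here are those that the deposited table annotates to auxin. They are 214 of its 36224 rows, chosen because the description contains the word auxin, names a SAUR protein or names an indole-3-acetic acid-amido synthetase. The rule reads descriptions and no measured value. By description the set holds 134 SAUR genes, 27 auxin response factors (ARFs), 14 GH3 genes, 10 auxin efflux carriers, 7 Aux/IAA genes and 21 other auxin-annotated genes. The remaining row entered through the species name Saururus in its description and had no counts. No row of an influx carrier of the AUX1/LAX family contains the word auxin, so the rule finds none, and 18 Aux/IAA rows whose descriptions give only an IAA number also lie outside it. Both of these groups are given at the end as an added list.

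RNA came from the pericarp, the fruit wall, of Ailsa Craig tomato fruit sampled 37 days after anthesis from greenhouse plants. The groups were wild type (WT) and JMJ6-OE, plants in the same background that overexpress a JmjC-domain histone demethylase, with 3 libraries each and no treatment. The sources used here give neither the promoter of the transgene nor the number of independent JMJ6-OE lines. No label states that replicate libraries were made from separate plants. The p-values therefore cover the spread among the libraries alone, which may be technical.

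Auxin is a plant hormone whose nuclear receptors, the TIR1/AFB F-box proteins, bind Aux/IAA repressors in its presence and send them to destruction by an SCF ubiquitin ligase. The ARF transcription factors that the Aux/IAA proteins held back, together with TOPLESS corepressors, then act on auxin response genes, among them Aux/IAA, GH3 and SAUR genes. GH3 enzymes join indole-3-acetic acid to amino acids, PIN carriers export it from cells and AUX1/LAX carriers import it. In tomato fruit, auxin is known as a hormone of fruit set and growth, and applied auxin is known to delay ripening.

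The libraries held 28539410 to 36487547 counts. Levels are given as CPM, counts per 1000000 on library sizes scaled by edgeR's TMM method, and a count of 3 is 0.0752 to 0.111 CPM. Where levels of different genes are compared, the deposited FPKM, which is per gene length, is used. A gene is called higher or lower at a p under 0.05 from the quasi-likelihood test of edgeR after Benjamini-Hochberg adjustment over the 20143 genes tested. The row taken for the overexpressed gene, Solyc06g008490.3, carries a JMJ16-like description and its match to JMJ6 is uncertain. It had 27.0, 23.5 and 25.5 CPM in WT and 31.5, 37.4 and 41.3 CPM in JMJ6-OE, a log2 change of 0.54 ± 0.12 (SE, adjusted p = 0.014), and its call was not kept without WT replicate 2 (adjusted p = 0.053) or without JMJ6-OE replicate 2 (adjusted p = 0.055).

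Ripening genes differed widely between the groups. All 6 genes of a ripe pericarp list were called higher, and their summed level was 1016.2 to 1560 CPM in WT and 13762 to 22715 CPM in JMJ6-OE. RIN, the MADS-box regulator of ripening (Solyc05g012020.3), rose by a log2 change of 3.38 ± 0.45 (adjusted p = 0.0032), and the polygalacturonase PG2A rose by 6.61 ± 0.23 (adjusted p = 3.1e-05). Fruit that were further into ripening at the same age and fruit that responded to the demethylase cannot be told apart in this design, and this holds for every auxin gene below. A seed list held 27 rows, 9 of them at 0 counts. Its summed CPM was 14.2 to 19.1 in WT and 35.3 to 72.6 in JMJ6-OE. Of its 7 tested genes 1 was called, the oleosin 1-like gene Solyc06g060840.1. The rise of the sum came from this row, whose mean went from 5.3 (WT) to 46.2 CPM (JMJ6-OE). The other tested seed genes did not pass, and the median log2 change of the 7 was -0.31. A phloem list of 41 rows, 8 of them at 0, summed to 459.3 to 489.8 CPM against 413.9 to 437.6 CPM, with 7 of its 28 tested genes higher and 6 lower. Most of that sum came from F-box rows with PP2 in their names, and the 6 lower genes were all PP2 or phloem protein 2 rows. The tested sieve element occlusion rows were all called higher, with log2 changes of 1.12 to 1.90 (adjusted p of 0.0043 to 0.049). Of these, Solyc05g013870.3 and Solyc05g013860.3 lost their calls in some fits that left out a library. A xylem list of 30 rows, 16 of them at 0, summed to 24.9 to 27.0 CPM against 25.5 to 32.6 CPM, with 0 of 6 tested genes called by edgeR, DESeq2 or voom and 0 at an unadjusted p under 0.05. The part of these tissues in the auxin results was not tested, and in bulk RNA fewer cells of a type cannot be told apart from less RNA per cell.

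Over the whole auxin set, 85 genes had no count in any library, 52 more were detected below the expression filter, and 77 were tested. Of the tested genes 10 were called higher in JMJ6-OE, where 17.5% of all tested genes were, and 21 were called lower, or 27.3%, against 16.8% of all tested genes. Both directions together gave 40.3%, and 34.3% of all tested genes were called. By family the called share of tested genes was 40% for Aux/IAA, 24% for ARF, 45.5% for SAUR and 40% for GH3. It was 66.7% for efflux carriers and 50% for the other auxin-annotated genes. These shares rest on few genes, only 5 for Aux/IAA and for GH3. At 2-fold or more, 7 genes were higher and 12 lower, where 5.77% and 8.97% of all tested genes passed. The median log2 change of the tested auxin genes was -0.23 and that of all tested genes was -0.01. The groups did not overlap in 46 of the 77 genes, or 59.7%, while 51.4% of all tested genes had no overlap. Leaving out 1 library at a time, 13 of the 31 called genes were called in all 6 fits. The count of genes called higher was 5 without JMJ6-OE replicate 2, 6 without WT replicate 1 and 6 without WT replicate 3. The count called lower was 10 without JMJ6-OE replicate 2, 12 without WT replicate 1 and 13 without WT replicate 3. It was 14 without either WT replicate 2 or JMJ6-OE replicate 3. Calls over all tested genes fell as well, from 6911 to 4086 without JMJ6-OE replicate 2. They were 4703 to 5713 without JMJ6-OE replicate 3 or any 1 WT library, and 8125 without JMJ6-OE replicate 1. The authors' deposited table passes 12 of the 214 genes as higher and 31 as lower at a false discovery rate under 0.05, and all 31 called here are among them.

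**Figure D1:**
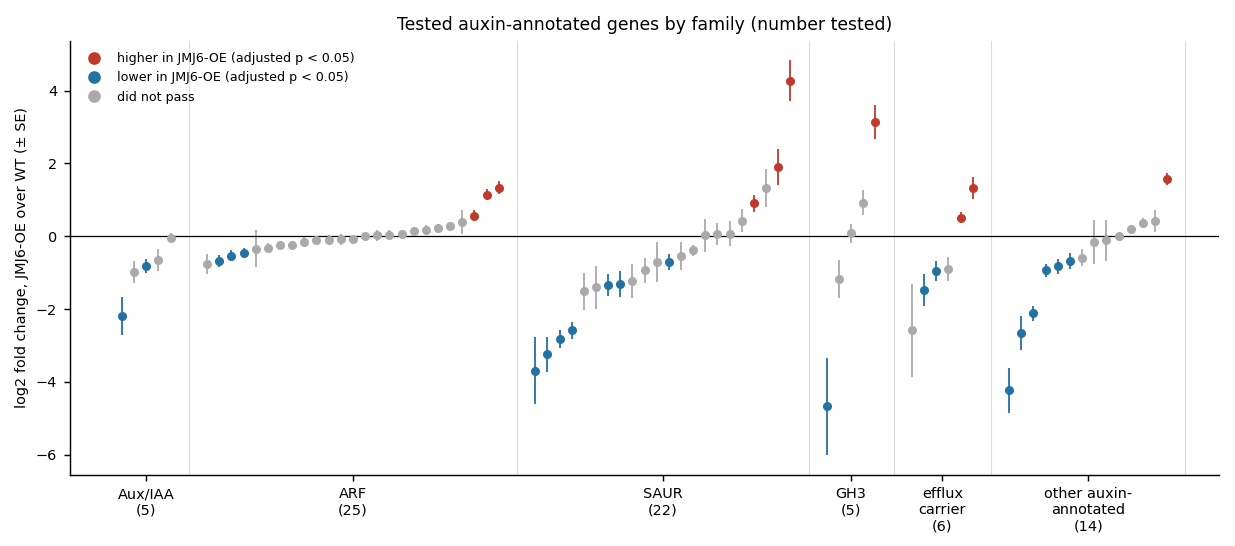
Log2 fold change of JMJ6-OE over WT, with its standard error, for each of the 77 tested auxin-annotated genes, grouped by family and ordered by change within a family. Red genes were called higher, blue lower and grey did not pass: the 25 ARF genes lie close to 0 on the whole, and the SAUR genes span from -3.69 to 4.27.

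Of the 7 Aux/IAA repressors named with the word auxin, 5 were tested and 2 were called, both lower. That is 40% of so few genes, where 34.3% of all tested genes were called and 16.8% were called lower. The median log2 change was -0.81. IAA16 (Solyc01g097290.3) had 1.96, 2.51 and 3.14 CPM in WT and 0.868, 0.178 and 0.630 CPM in JMJ6-OE. Every WT library was above every JMJ6-OE library, and IAA16 fell by 2.18 ± 0.52 on the log2 scale (adjusted p = 0.016), a call that did not hold without WT replicate 3 (adjusted p = 0.052). The gene described as IAA8 at Solyc12g007230.2 had 19.04, 27.03 and 16.68 CPM in WT against 12.52, 11.95 and 11.2 CPM. Its groups were also separate, and it fell by 0.82 ± 0.19 (adjusted p = 0.014), a call that did not hold without JMJ6-OE replicate 2 (adjusted p = 0.052). IAA4 (Solyc06g053840.3) had 136.2, 112.7 and 112.1 CPM in WT and 93.6, 45.5 and 43.8 CPM in JMJ6-OE, with replicate 1 highest in both groups. Its log2 change of -0.98 ± 0.31 stood at an adjusted p of 0.051 and did not pass. IAA4 was called in 4 of the 7 alternative fits that kept all libraries and in 1 of the 6 that left out a library. The authors' comparison gives it a false discovery rate of 0.0023.

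IAA9, whose silencing in tomato is known to give fruit without pollination, was the most abundant Aux/IAA gene of the set by FPKM. IAA9 (Solyc04g076850.3) had 382.1, 438.1 and 364.1 CPM in WT and 345.0, 392.7 and 415.1 CPM in JMJ6-OE. The groups overlapped and the log2 change was -0.04 ± 0.12 (adjusted p = 0.83), positive in the fits without WT replicate 2 and without JMJ6-OE replicate 1. In FPKM it stood at 228.6 ± 27.0 (SD, n = 3) in WT and 194.5 ± 6.31 in JMJ6-OE, and its share of the FPKM summed over the 7 rows went from 59.9% to 73.3%. That sum was 381.8 ± 30.2 in WT and 265.5 ± 27.8 in JMJ6-OE.

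The ARF genes, the DNA-binding factors of the pathway, were nearly all expressed: 26 of 27 had counts and 25 were tested. Most of them did not pass, with 3 called higher, 3 lower and a median log2 change of -0.08, and the called share was 24.0%. ARF17 (Solyc11g013480.2) had 9.23, 11.8 and 10.6 CPM in WT and 20.2, 30.0 and 29.2 CPM in JMJ6-OE. The groups lay far apart, and ARF17 rose by 1.33 ± 0.18 (adjusted p = 0.0018). The gene described as ARF5 (Solyc04g081235.1), whose Arabidopsis namesake is the activator MONOPTEROS, had 23.7, 25.9 and 23.9 CPM in WT and 42.5, 60.4 and 58.9 CPM in JMJ6-OE. It rose by 1.14 ± 0.14 (adjusted p = 0.0015), and like ARF17 it was called in all 6 fits that left out a library. JMJ6-OE replicate 1 was the lowest JMJ6-OE library in both genes.

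3 ARF genes fell, each by less than 2-fold. The gene described as ARF13 (Solyc05g056040.3) had 34.1, 33.8 and 34.8 CPM in WT and 25.1, 23.0 and 15.7 CPM in JMJ6-OE, a log2 change of -0.68 ± 0.17 (adjusted p = 0.019). Its call was kept without any one JMJ6-OE library and missed without WT replicate 1, 2 or 3 (adjusted p of 0.052, 0.057 and 0.054). ARF1 (Solyc01g103050.3) had 77.8, 61.4 and 84.1 CPM in WT and 59.4, 49.1 and 45.2 CPM in JMJ6-OE, with the lowest WT library only just above the highest JMJ6-OE one. The log2 change of ARF1 was -0.54 ± 0.15 (adjusted p = 0.028), and without WT replicate 1 or 3 or JMJ6-OE replicate 2 or 3 the adjusted p was 0.075 to 0.099. ARF8 (Solyc02g037530.3), a factor linked to fruit set, had 40.5, 42.8 and 41.5 CPM in WT and 35.6, 29.1 and 26.7 CPM in JMJ6-OE. It fell by 0.45 ± 0.12 (adjusted p = 0.025), a call kept only without JMJ6-OE replicate 1, with adjusted p of 0.053 to 0.095 in the other 5 fits.

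Among the ARFs that did not pass, ARF6 (Solyc00g188857.1) had 80.5, 77.1 and 75.2 CPM in WT and 76.2, 77.0 and 82.8 CPM in JMJ6-OE. Its log2 change was 0.02 ± 0.08 (adjusted p = 0.87) and its groups overlapped. ARF19 (Solyc07g016180.3) had a log2 change of -0.75 ± 0.28 (adjusted p = 0.076). ARF10 (Solyc11g069500.2), described in tomato as a regulator of chlorophyll and sugar in fruit, had 0.28 ± 0.10 (adjusted p = 0.074). Sorted by symbol into ARF5, ARF6, ARF8 and ARF19, whose Arabidopsis namesakes are activators, 1 of 11 tested genes rose and 1 fell. Of the 14 other tested ARFs 2 rose and 2 fell.

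**Figure D2:**
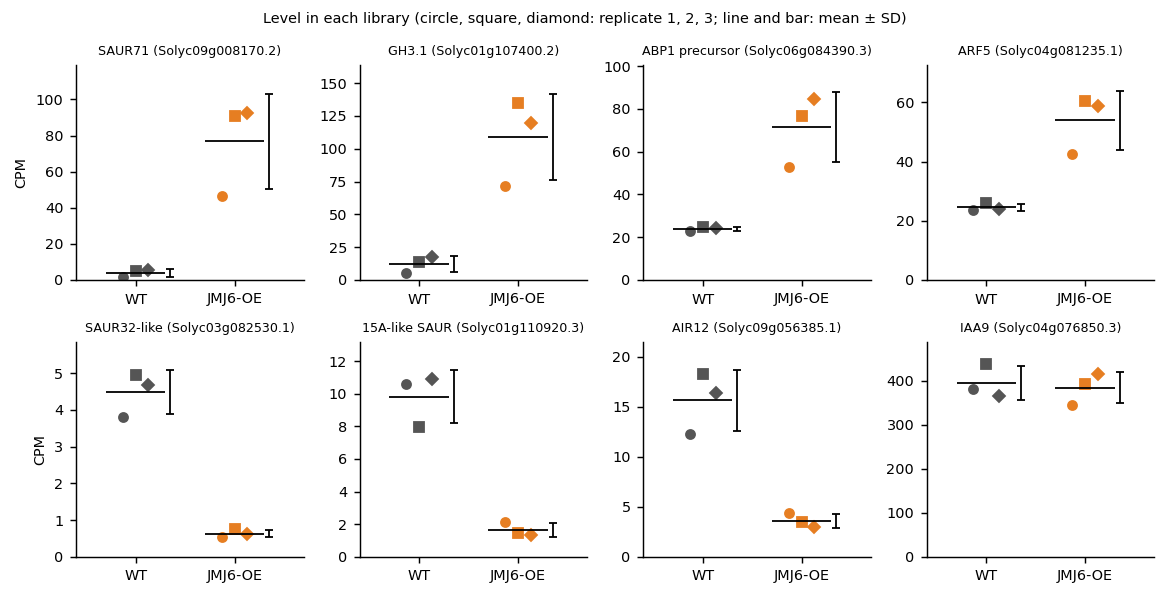
CPM in each of the 6 libraries (circle, square and diamond for replicates 1, 2 and 3) with the mean and SD of each group (n = 3), for 4 genes called higher in the top row, 3 called lower and IAA9, which did not pass. The groups are separate in the first 7 panels, and JMJ6-OE replicate 1 is the lowest JMJ6-OE library in each of the top 4.

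The SAUR genes, small early auxin response genes of which many promote cell expansion, were mostly silent in this tissue. Of 134 rows 70 had no count in any library, 42 were detected below the filter and 22 were tested. Of the tested SAUR genes 3 rose and 7 fell, with a median log2 change of -0.71. Silent rows were common on chromosome 10 (19 of 24), chromosome 11 (14 of 16), chromosome 4 (13 of 17) and chromosome 12 (3 of 3), going by the chromosome in the identifier.

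The strongest increase in the auxin set was in a SAUR71 gene on chromosome 9. Solyc09g008170.2 had 1.35, 4.94 and 5.46 CPM in WT and 46.6, 91.1 and 92.8 CPM in JMJ6-OE, and rose by 4.27 ± 0.56 on the log2 scale (adjusted p = 0.0030), called in all 6 fits that left out a library. The row with the next locus number in the table, Solyc09g008175.1, has the same description and had 5.82, 18.5 and 16.9 CPM in WT and 31.7, 53.0 and 71.5 CPM in JMJ6-OE. It rose by 1.91 ± 0.50 (adjusted p = 0.029), and its call was lost without WT replicate 3, JMJ6-OE replicate 2 or JMJ6-OE replicate 3 (adjusted p of 0.056, 0.078 and 0.089). In both rows replicate 1 was the lowest library of its group. How reads were divided between these rows is uncertain, since near-identical copies can share reads. Their summed level was 7.17, 23.4 and 22.4 CPM in WT and 78.3, 144.1 and 164.2 CPM in JMJ6-OE, a 7.30-fold ratio of means. In FPKM the pair made up 1.98% and 6.60% of the SAUR sum in WT and 28.2% and 18.2% of it in JMJ6-OE.

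A further increase was in SAUR32 (Solyc01g096340.3), with 12.7, 13.2 and 11.4 CPM in WT and 15.1, 25.1 and 29.6 CPM in JMJ6-OE. It rose by 0.90 ± 0.24 (adjusted p = 0.024), a call kept only without JMJ6-OE replicate 1 and at an adjusted p of 0.061 to 0.081 in the other 5 fits. SAUR72 (Solyc07g042490.1) was the most abundant SAUR by FPKM, at 327.3 ± 49.5 (SD, n = 3) in WT and 218.9 ± 12.1 in JMJ6-OE. In CPM it had 129.4, 97.8 and 135.1 in WT and 82.6, 90.6 and 103.5 in JMJ6-OE, so the groups overlapped. Its log2 change of -0.39 ± 0.14 did not pass (adjusted p = 0.073), and it was called under upper-quartile scaling (adjusted p = 0.034) and by DESeq2 (adjusted p = 0.048).

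Among the SAUR genes that fell, a SAUR32-like gene had the smallest adjusted p of the whole auxin set. Solyc03g082530.1 had 3.82, 4.96 and 4.69 CPM in WT and 0.527, 0.743 and 0.630 CPM in JMJ6-OE, a log2 change of -2.82 ± 0.25 (adjusted p = 4e-04). A 15A-like SAUR, Solyc01g110920.3, had 10.6, 7.97 and 10.9 CPM in WT and 2.11, 1.46 and 1.33 CPM in JMJ6-OE, a log2 change of -2.58 ± 0.24 (adjusted p = 4.7e-04). In both genes every JMJ6-OE library was below every WT library. The gene described as 10A5, Solyc01g091030.3, had 1.29, 2.58 and 3.79 CPM in WT and 0.248, 0.327 and 0.222 CPM in JMJ6-OE. It fell by 3.24 ± 0.48 (adjusted p = 0.0027), and the WT libraries varied more than those of JMJ6-OE. Solyc01g110735.1, another 15A-like gene, fell from 1.37 ± 0.07 to 0.536 ± 0.052 CPM (SD, n = 3), a log2 change of -1.34 ± 0.29 (adjusted p = 0.012). These 4 calls held in every fit that left out a library. The remaining 3 calls lower, Solyc08g079150.1, Solyc04g081270.1 and Solyc07g014620.1, were lost in some of those fits. The first was lost without WT replicate 1 or 2 or JMJ6-OE replicate 2, the second unless JMJ6-OE replicate 1 was left out, and the last without WT replicate 1 or 2 or JMJ6-OE replicate 2 or 3, with adjusted p up to 0.060, 0.084 and 0.14 in that order. Their log2 changes in the fit of all libraries were -3.69, -1.32 and -0.70. The first had counts in JMJ6-OE replicate 1 alone of that group, and its change ran from -3.10 to -7.64 over the fits, the latter without that library.

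Many SAUR rows have close locus numbers on chromosome 1. From Solyc01g110560 to Solyc01g111010 the table has 55 rows, of which 40 are SAUR genes, with 13 at 0 counts, 27 detected and 7 tested. In 19 of the 27 detected rows the mean was lower in JMJ6-OE. Of the 7 tested genes 2 were called, both lower, the 15A-like genes Solyc01g110920.3 and Solyc01g110735.1. That is 28.6% of so few genes, where 34.3% of all tested genes were called and 16.8% were called lower. Of the 15 tested SAUR genes outside the stretch 53.3% were called, 33.3% lower. Summed over the 40 rows the level was 26.3, 21.6 and 24.5 CPM in WT and 8.65, 9.84 and 10.2 CPM in JMJ6-OE. Without Solyc01g110920.3, which held the most counts, the sums were 15.8, 13.6 and 13.5 CPM against 6.54, 8.38 and 8.82 CPM, so the groups stayed separate. Of the other 15 rows in the same stretch, 14 were detected and 11 of these also had a lower mean in JMJ6-OE. Those 15 rows summed to 71.9, 67.5 and 77.2 CPM in WT and 68.3, 70.9 and 65.4 CPM in JMJ6-OE, which overlap. Most of that sum came from 1 row, Solyc01g110990.2, with means of 52.6 (WT) and 52.0 CPM (JMJ6-OE). It therefore says little about the rest of the 15 rows. Of their 5 tested genes 0 were called by edgeR, DESeq2 or voom, with 1 at an unadjusted p under 0.05. The stretch was chosen after the values were seen, and near-identical SAUR copies can share reads, so single rows in it are uncertain.

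**Figure D3:**
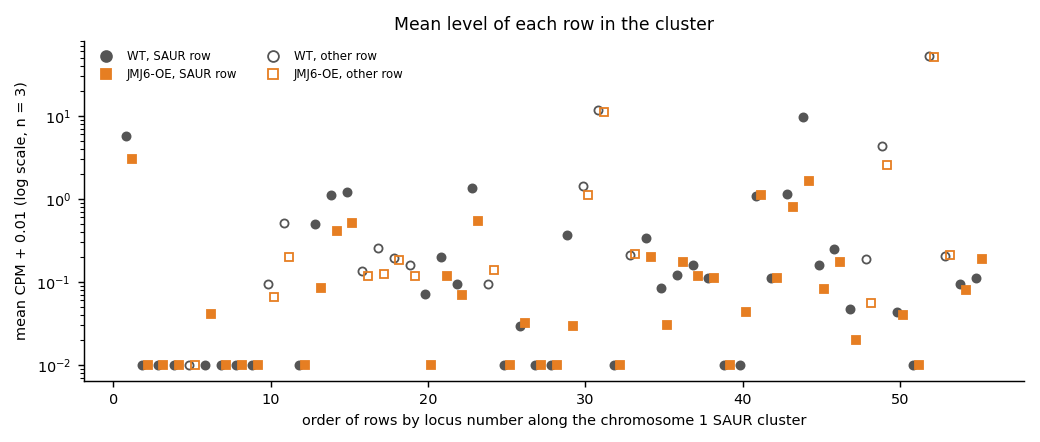
Mean CPM (n = 3, plus 0.01 for a log axis) of each of the 55 rows from Solyc01g110560 to Solyc01g111010, in the order of their locus numbers, with SAUR rows filled and other rows open. Grey WT points stand above orange JMJ6-OE points for 19 of the 27 detected SAUR rows and for 11 of the 14 other detected rows, and points at the bottom of the axis had no counts in that group.

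GH3 genes encode the enzymes that conjugate auxin to amino acids, and a single row dominated the family. GH3.1 at Solyc01g107400.2 had 5.61, 13.7 and 17.7 CPM in WT and 71.9, 135.2 and 119.6 CPM in JMJ6-OE. The groups were far apart, replicate 1 was lowest in each, and the gene rose by 3.14 ± 0.47 (adjusted p = 0.0046) with its call kept in all 6 fits that left out a library. A row close to it by locus number, Solyc01g107390.3, with the same GH3.1 description, had 7.203, 12.75 and 15.29 CPM in WT and 14.7, 29.7 and 22.4 CPM in JMJ6-OE. Those groups overlapped, the log2 change of 0.92 ± 0.35 did not pass (adjusted p = 0.083), and the division of reads within the pair is uncertain. The pair summed to 12.8, 26.4 and 33.0 CPM in WT and 86.5, 164.9 and 141.9 CPM in JMJ6-OE, a 5.45-fold ratio of means. Solyc01g107400.2 made up 64.2% of the family's FPKM in WT and 92.8% in JMJ6-OE, and the family sum was 35.03 ± 16.32 FPKM and 184.8 ± 49.5 FPKM (SD, n = 3).

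The other GH3 genes were low. A further GH3.1 row, Solyc02g064830.3, had 0.913, 1.28 and 9.04 CPM in WT and 0, 0.119 and 0.334 CPM in JMJ6-OE, so most of its WT level came from replicate 3. It fell by 4.67 ± 1.33 on the log2 scale (adjusted p = 0.039), and the call missed without WT replicate 3 (adjusted p = 0.063, with a log2 change of -2.94). It was also lost without JMJ6-OE replicate 1, 2 or 3 (adjusted p of 0.095, 0.13 and 0.076). The GH3.6 genes Solyc07g063850.3 and Solyc10g006610.3 had log2 changes of -1.17 ± 0.53 (adjusted p = 0.13) and 0.08 ± 0.26 (adjusted p = 0.83). In all, 5 of 14 rows were tested, 1 rose and 1 fell.

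Efflux carriers of the PIN family, which set the direction of auxin flow, moved both ways. Of 10 rows 6 were tested, 2 rose and 2 fell, and 2 rows had no counts. Names follow the descriptions, from which the table's symbol column differs. SlPIN7 (Solyc10g080880.2) had 3.75, 4.69 and 2.52 CPM in WT and 8.15, 12.5 and 6.75 CPM in JMJ6-OE. It rose by 1.32 ± 0.31 (adjusted p = 0.015), with adjusted p of 0.054 without WT replicate 1 and 0.052 without JMJ6-OE replicate 2. SlPIN8 (Solyc02g087660.3) had 11.9, 11.5 and 11.8 CPM in WT and 13.3, 16.5 and 20.4 CPM in JMJ6-OE. Its rise of 0.51 ± 0.16 (adjusted p = 0.046) was called without JMJ6-OE replicate 1 and in no other fit that left out a library, where adjusted p was 0.10 to 0.13.

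SlPIN4 (Solyc05g008060.3), which is known from tomato fruit and had the highest FPKM of the PIN genes in WT but not in JMJ6-OE, had 8.35, 21.7 and 29.3 CPM in WT and 7.56, 7.55 and 6.19 CPM in JMJ6-OE. WT replicate 1 stood close to the JMJ6-OE libraries, and the groups were separate by less than 1 CPM. SlPIN4 fell by 1.48 ± 0.43 (adjusted p = 0.040), a call kept only without WT replicate 1 and at adjusted p of 0.087 to 0.13 in the other 5 fits. SlPIN9 (Solyc10g078370.2) had 4.024, 4.836 and 4.196 CPM in WT and 2.70, 2.56 and 1.45 CPM in JMJ6-OE. It fell by 0.96 ± 0.27 (adjusted p = 0.031), a call kept only without JMJ6-OE replicate 1 and at adjusted p of 0.051 to 0.10 otherwise. SlPIN1 and SlPIN3 had log2 changes of -0.90 ± 0.34 and -2.59 ± 1.28 and did not pass (adjusted p of 0.078 and 0.16). The FPKM summed over PIN rows overlapped between the groups, at 15.2 ± 4.25 in WT and 11.3 ± 1.39 in JMJ6-OE (SD, n = 3).

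Among the other auxin-annotated genes, 14 of 21 were tested, 1 rose and 6 fell. The gene that rose encodes the precursor of auxin binding protein 1, an endoplasmic reticulum protein that binds auxin. It (Solyc06g084390.3) had 22.9, 24.7 and 24.4 CPM in WT and 53.0, 77.0 and 84.6 CPM in JMJ6-OE, a log2 change of 1.58 ± 0.17 (adjusted p = 8.3e-04). The WT libraries were tight, every JMJ6-OE library was above 50 CPM, and the call held in all 6 fits that left out a library.

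Of the genes that fell in this group, the change was largest in an auxin-regulated cytosolic kinase. It (Solyc06g062920.3) had 11.3, 11.9 and 36.2 CPM in WT and 1.55, 0.832 and 0.741 CPM in JMJ6-OE, a log2 change of -4.24 ± 0.62 (adjusted p = 0.0040). WT replicate 3 stood well above the other WT libraries, and without it the change was -3.50. AIR12 (Solyc09g056385.1), a protein named for its induction by auxin in root cultures, had 12.3, 18.3 and 16.4 CPM in WT and 4.34, 3.51 and 2.93 CPM in JMJ6-OE. It fell by 2.12 ± 0.21 (adjusted p = 6.1e-04). The auxin-regulated protein with the symbol UFC (Solyc06g075690.3) had 16.0, 27.7 and 52.9 CPM in WT and 4.96, 6.24 and 4.12 CPM in JMJ6-OE, again with WT replicate 3 highest. UFC fell by 2.65 ± 0.46 (adjusted p = 0.0071), and PCNT115 (Solyc09g097970.3) by 0.94 ± 0.19 (adjusted p = 0.0086), and all 4 genes were called in every fit that left out a library.

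The dormancy-associated, auxin-repressed gene Solyc02g077880.3 was by far the most abundant gene of the set, at 1238.9 ± 250.4 FPKM (SD, n = 3) in WT and 686.8 ± 187.6 FPKM in JMJ6-OE. Its share of the FPKM summed over the set was 40.7% in WT and 26.8% in JMJ6-OE. In CPM it had 1275, 903.2 and 852.1 in WT and 778.6, 508.6 and 605.5 in JMJ6-OE, with replicate 1 highest in both groups. It fell by 0.68 ± 0.22 (adjusted p = 0.045), a call kept only without JMJ6-OE replicate 1 and at adjusted p of 0.053 to 0.15 in the other 5 fits. The auxin transport protein BIG (Solyc02g089263.1) had 315.2, 280.4 and 305.7 CPM in WT and 363.1, 361.9 and 316.2 CPM in JMJ6-OE, a log2 change of 0.21 ± 0.10 that did not pass (adjusted p = 0.16).

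The receptor gene AFB2, chosen for mention after its values were seen, was the sixth gene of the group to fall. AFB2 (Solyc02g079190.3) had 76.9, 51.1 and 53.8 CPM in WT and 42.9, 30.0 and 29.7 CPM in JMJ6-OE, a log2 change of -0.82 ± 0.21 (adjusted p = 0.022). Its call was lost without WT replicate 1, JMJ6-OE replicate 2 or JMJ6-OE replicate 3, with adjusted p up to 0.082. The other receptor row at a comparable level, a TIR1-like gene outside the annotation rule (Solyc09g074520.3) chosen in the same way, had 107.6, 77.2 and 81.7 CPM in WT and 69.2, 47.5 and 43.3 CPM in JMJ6-OE. It fell by 0.74 ± 0.21 (adjusted p = 0.033), a call kept only without JMJ6-OE replicate 1, with adjusted p up to 0.11 otherwise. In both receptor genes replicate 1 was the highest library of each group, and the groups did not overlap.

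**Figure D4:**
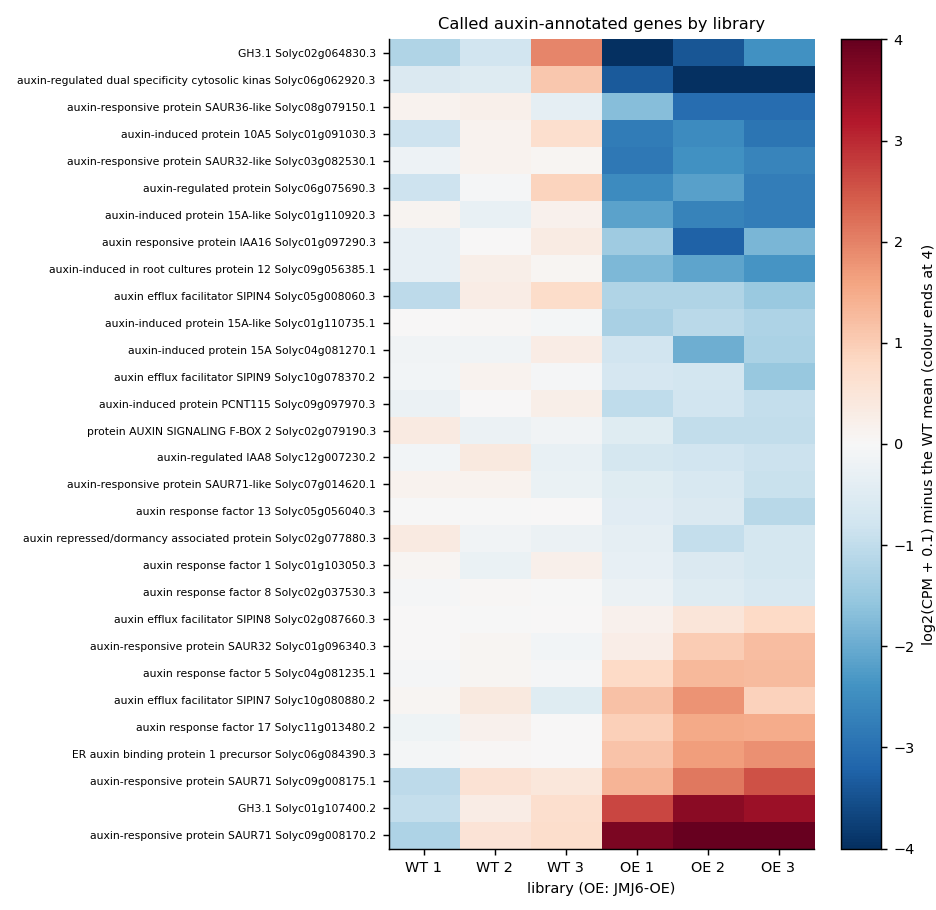
Log2(CPM + 0.1) of called auxin-annotated genes in each library, 1 of the 31 not being shown, minus the mean of the 3 WT libraries, ordered by log2 fold change. The column of JMJ6-OE replicate 1 is paler than those of replicates 2 and 3 in most rows, and WT replicate 1 departs from the other WT libraries in rows such as SlPIN4, GH3.1 and SAUR71.

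Libraries differed within groups in the auxin set. In 24 of the 31 called genes, or 77.4%, JMJ6-OE replicate 1 was the JMJ6-OE library nearest to the WT mean, while over all called genes that share was 69.3%. WT replicate 1 was at least 1.5 times below both other WT libraries in 11 of the 77 tested genes, or 14.3%, against 5.96% of all tested genes. JMJ6-OE replicate 1 was that far below both other JMJ6-OE libraries in 10 of the 77, or 13%, against 4.93% of all tested genes. It was that far above both in 9 of the 77, or 11.7%, against 7.49%, so it departed both ways. WT replicate 1 was that far above both other WT libraries in 1 of the 77, or 1.3%, against 2.67% of all tested genes. Whether these libraries came from fruit at another stage was not tested.

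Genes of the pathway outside the annotation rule were taken from a list of 117 rows by description. Of 59 tested, 8 rose and 11 fell, or 32.2% called, close to the 34.3% of all tested genes (17.5% higher, 16.8% lower). The counts for its parts below stand beside these same shares. Auxin synthesis rows were listed by a description naming tryptophan aminotransferase, TAR or YUCCA. Of these 15 rows 12 had 0 counts and 2 were tested, of which only the YUCCA flavin monooxygenase YUC8 was called. YUC8 held 91.4% of their summed FPKM in WT and 98.0% in JMJ6-OE. YUC8 (Solyc06g008050.3) had 14.2, 20.4 and 20.6 CPM in WT and 61.3, 77.6 and 90.6 CPM in JMJ6-OE. The groups were separate by a wide margin, and YUC8 rose by 2.05 ± 0.20 (adjusted p = 5.6e-04). Among the 6 hydrolases that release auxin from conjugates, 2 rose and 1 fell. ILR1-like 4 at Solyc12g008690.2 rose by 0.78 ± 0.09 (adjusted p = 0.0012) and ILR1-like 3 at Solyc06g054410.3 fell by 0.49 ± 0.10 (adjusted p = 0.010), while the most abundant hydrolase by FPKM, ILR1-like 4 at Solyc03g121270.3, had 0.04 ± 0.24 (adjusted p = 0.91).

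Of the 10 tested transporters of the PIN-LIKES and ABCB families, 1 rose and 2 fell. PIN-LIKES 1 (Solyc04g082830.3) had 25.1, 29.2 and 27.6 CPM in WT and 43.3, 55.6 and 74.0 CPM in JMJ6-OE and rose by 1.08 ± 0.19 (adjusted p = 0.0055). PIN-LIKES 3-like (Solyc03g031990.3) had 3.04, 2.11 and 2.91 CPM in WT and 0.651, 0.208 and 0.408 CPM in JMJ6-OE and fell by 2.66 ± 0.43 (adjusted p = 0.0037). Among 12 tested kinases described as D6PK-like or PINOID, a group known in Arabidopsis to activate PIN carriers, 3 rose and 1 fell. Among 16 tested SKP1 and cullin-1 rows of the SCF ligase 1 rose and 3 fell, and the largest change among these calls was in the low cullin-1-like row Solyc06g008065.1, which fell by 1.76 ± 0.35 (adjusted p = 0.0089). Of 8 tested TOPLESS corepressor genes 3 were called, each lower by less than 2-fold, and 1 of them was called in all 6 fits that left out a library. The TOPLESS rows together did not fall: they summed to 765, 703.7 and 749.9 CPM in WT and 776.9, 787.9 and 809.1 CPM in JMJ6-OE. Of 5 tested receptor rows the TIR1-like gene above was the 1 that fell.

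Aux/IAA rows described without the word auxin were listed by description after the table had been seen, and genes are named from them with their values known. Of 18 rows 12 were tested, 1 rose and 6 fell, or 58.3% called, where 34.3% of all tested genes were. IAA29 (Solyc08g021820.3) had 16.8, 11.2 and 33.7 CPM in WT and 2.14, 4.13 and 4.23 CPM in JMJ6-OE, a log2 change of -2.56 ± 0.48 (adjusted p = 0.0092). IAA3 (Solyc09g065850.3) stood at 21.6 ± 2.96 (WT) and 10.2 ± 1.37 (JMJ6-OE) CPM (SD, n = 3) with no overlap, a log2 change of -1.08 ± 0.15 (adjusted p = 0.0022). IAA26 (Solyc03g121060.3) fell by 1.53 ± 0.23 (adjusted p = 0.0029). IAA35 and IAA1, both under 2 CPM in mean WT level, fell as well (adjusted p of 0.0076 and 0.012). IAA7 (Solyc06g053830.3) had 0.406, 0.651 and 0.386 CPM in WT and no count in any JMJ6-OE library, where 3 counts per library would be 0.0892 to 0.111 CPM, so it was at least 4.33-fold lower. These 6 genes kept their calls in all 6 fits that left out a library. IAA12 rose by 0.60 ± 0.19 (adjusted p = 0.045), a call kept only without JMJ6-OE replicate 1, with adjusted p up to 0.16 otherwise. The most abundant of the 18 rows by FPKM, the one described as protein IAA8 (Solyc03g120390.3), had 360.6 to 411.3 CPM in WT and 350.5 to 468.8 CPM in JMJ6-OE and did not pass (adjusted p = 0.39).

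The influx carriers of the LAX family formed a list of 5 rows added in the same way, with 4 tested and 1 called, which was lower. LAX4 (Solyc10g076790.2) had 2.739, 2.004 and 2.188 CPM in WT and 1.30, 1.04 and 0.964 CPM in JMJ6-OE. It fell by 1.06 ± 0.27 (adjusted p = 0.020), a call lost in 3 of 6 fits that left out a library, without WT replicate 1, JMJ6-OE replicate 2 or JMJ6-OE replicate 3, with adjusted p up to 0.071. LAX3 (Solyc11g013310.2), the most abundant by FPKM, had 75.8, 86.3 and 60.8 CPM in WT and 123.8, 83.1 and 87.1 CPM in JMJ6-OE, overlapped between the groups and did not pass (adjusted p = 0.14).

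**Figure D5:**
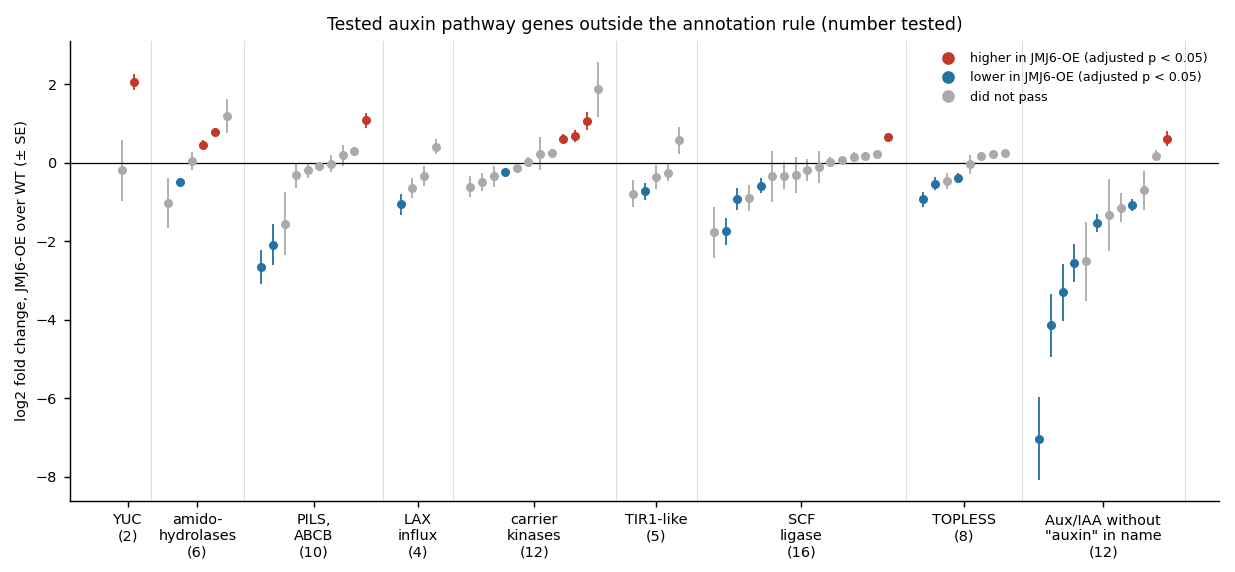
Log2 fold change of JMJ6-OE over WT with its standard error for the tested pathway genes outside the annotation rule, by role, with the LAX and Aux/IAA lists that were added after the table was seen. Red genes were called higher, blue lower and grey did not pass; YUC8 stands alone at the top left, and the lowest point, IAA7, is a fitted value against JMJ6-OE libraries without counts and is no measure of size.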

How the data were processed

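RNA-seq libraries of pericarp from WT and JMJ6-OE fruit (3 each) were grouped by their titles. The authors deposited 1 table with a raw count and an FPKM value for each gene in each library, and with a log2 fold change, a p-value and a false discovery rate of their own comparison, per the file headers. The submitters' processing notes name HISAT2. The sources used here do not give its version, the counter, genome build, annotation, strandedness or the authors' test, so overlapping or antisense genes may share reads. Sequences of the genes were not analysed here, and the values of 1 ARF gene are not reported here.

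Counts were used as deposited. Genes were kept by filterByExpr (minimum count 10), libraries scaled by TMM, and JMJ6-OE tested against WT without covariates with edgeR 4.0.16 (R 4.3.3; quasi-likelihood, robust), with Benjamini-Hochberg adjustment at 0.05 over all 20143 tested genes. The method was checked on simulated counts. The standard error is the log2 change divided by the root of F. FPKM, which is not TMM-scaled, was used for levels between genes and family shares, and floors of 3 counts cover counting error only.

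The members and lists were chosen with earlier results of these data known. Genes were named by a rule on adjusted p, size of change and FPKM (42 genes), and every other gene that is named was chosen after its values were seen. Phosphatase rows that the word PP2 also matches were kept out of the phloem list. As alternatives, scaling was by RLE or by upper quartile, the test was DESeq2 1.42.0 or voom (limma 3.58.1), and the fit was repeated with no filter, a filter of 1 CPM in 3 libraries, a replicate block and leaving out each library. Replicates of a group differed by more than sampling noise, so none is a copy of another.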

Additional observations from a re-analysis of the deposited data

How the results depend on the processing

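Depth limits the SAUR and GH3 genes, of which 42 and 5 were detected below the filter. Of the 15 auxin synthesis rows 12 had no count and could not be tested. In addition, 3 libraries per group with unknown plant origin limit every call. Leaving out 1 library at a time, the whole set gave 5 to 11 genes called higher and 10 to 25 lower. The pathway list gave 7 to 10 higher and 4 to 10 lower. Over all tested genes these fits called 4086 to 8125, against 6911 with all libraries. By family the ranges were 2 to 3 higher and 0 to 5 lower for ARF, 0 higher and 1 to 4 lower for Aux/IAA, 1 to 3 higher and 4 to 8 lower for SAUR, 1 to 2 higher and 0 to 1 lower for GH3, 0 to 2 higher and 0 to 2 lower for efflux carriers, and 1 to 2 higher and 4 to 6 lower for other genes. All 31 main calls were shared with RLE scaling and with DESeq2, which called 43 in all, 14 of them SAUR genes lower and 2 GH3 genes higher. Upper-quartile scaling called 33 (5 ARF genes lower, 1 efflux carrier higher). Limma-voom called 30 and no filter 31, each with 1 efflux carrier higher, 1 lower and 0 GH3 genes lower, and the filter of 1 CPM called 30, with 0 GH3 genes lower. The cause was not tested. Among the 42 genes named by rule, the log2 changes that turned sign were all close to 0: ARF6 (Solyc00g188857.1) under upper-quartile scaling (-0.045) and over the fits that left out 1 library (-0.041 to 0.042), and IAA9 (Solyc04g076850.3) over the same fits (-0.134 to 0.033).

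Same-numbered libraries deviated together at correlations of 0.0939, 0.0777 and -0.0822, which is not over 0.1 in any pair, so the numbers were not taken as pairs. As a hint from the data and not the design, the second principal component (8.56% of variance) ordered both groups by number, at 23 and 26.9 for replicate 1, -6.99 and -5.66 for replicate 2 and -20.3 and -17 for replicate 3, although not every library correlated best with its own number. With the replicate block 35 members were called, 28 of the main 31 among them, with 4 Aux/IAA genes lower, 2 GH3 genes higher and 2 lower, and 1 efflux carrier higher and 1 lower.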
